A study of Mus musculus with 6 samples.

Results

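The interleukin-1 (IL-1) family genes described here are 9 mouse genes chosen by symbol. They are the ligand genes Il1a, Il1b and Il18, the antagonist gene Il1rn, the receptor genes Il1r1, Il1rap and Il1r2, and the inflammasome genes Casp1 and Nlrp3. They were read from 16 of the 45037 probe sets of an Affymetrix mouse expression array, and as genes they are 9 of the 18193 with a symbol of their own. The data are 6 lung samples, each on its own array and called a biological replicate in the labels, 2 from IL13-transgenic and 4 from wild-type mice. The transgene is named CC10-rtTA-IL13. In it the CC10 promoter, active in club cells of the airway, drives a doxycycline-dependent activator, and the cytokine IL-13 is made while the drug is given. Transgenic and wild-type animals were C57BL/6 mice of 6 to 10 weeks, all drank doxycycline at 2 mg/mL for 7 days, and the left upper lobe of the lung was used whole, so that RNA of all its cells was measured together. In such bulk RNA a change in the number of cells of a type and a change of RNA per cell cannot be told apart.

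IL-1 alpha and IL-1 beta are alarm cytokines that bind the receptor IL-1R1, which then recruits its partner IL-1RAP and signals through MyD88 and IRAK kinases to NF-kB. The family holds its own brakes, since the antagonist IL-1Ra (Il1rn) occupies IL-1R1 without recruiting the partner, and IL-1R2 binds ligand but lacks a signalling tail. IL-1 beta and IL-18 are made as inactive precursors that the protease caspase-1 cuts inside the inflammasome, a complex that sensors such as NLRP3 assemble, so the messenger RNA measured here says nothing of how much active cytokine was released.

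Values are RMA expression values on the log2 scale. They ran from 2.30 to 15.19 over all arrays, and array medians lay between 5.28 and 5.31. Pearson's r over genes, which do not count as independent replicates, was 0.987 to 0.994 where both arrays came from 1 genotype and 0.967 to 0.973 where they did not. The probe set of Il13, the gene the transgene carries, read 4.24 and 4.09 in transgenic lungs against 3.84, 3.72, 4.03 and 3.79 in wild-type lungs, which differ by 0.32 ± 0.12 (SE, adjusted p = 0.11, limma). Whether the transgene's transcript reaches that probe set is not stated in the labels. Markers of heart muscle and fat had their lowest mean log2 levels in transgenic replicate 2 (5.15 and 5.82), whereas the other 5 arrays lay between 7.57 and 10.6 for heart and between 8.12 and 10.4 for fat. The arrays are few, and their number limits the precision of every value below.

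Transgenic lungs carried far more messenger RNA of 1 ligand and of the antagonist. Il1a and Il1rn, the latter as its brightest probe set, each rose about 7.1-fold. Both other probe sets of Il1rn rose by less (3.23-fold and 3.90-fold). Casp1 rose 2.44-fold and the decoy receptor gene Il1r2 1.68-fold. The receptor genes Il1r1 and Il1rap did not pass the test, nor did Il1b, Il18 and Nlrp3. By limma with an adjusted p under 0.05, 4 of the 9 genes passed as higher and 0 as lower, and 5 had an unadjusted p under 0.05. Over all 18193 genes 8.43% were called higher and 10.5% lower. The median log2 difference of the 9 genes was 0.75, against -0.00 for all genes. Both transgenic values lay above the wild-type range for 4 of the 9 genes and below it for 1, where 19.7% and 22% of all genes did so and 41.7% lay on either side. The count of 4 dropped to 3 when either transgenic array was left out and was 6 with wild-type replicate 3 left out.

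**Figure D1:**
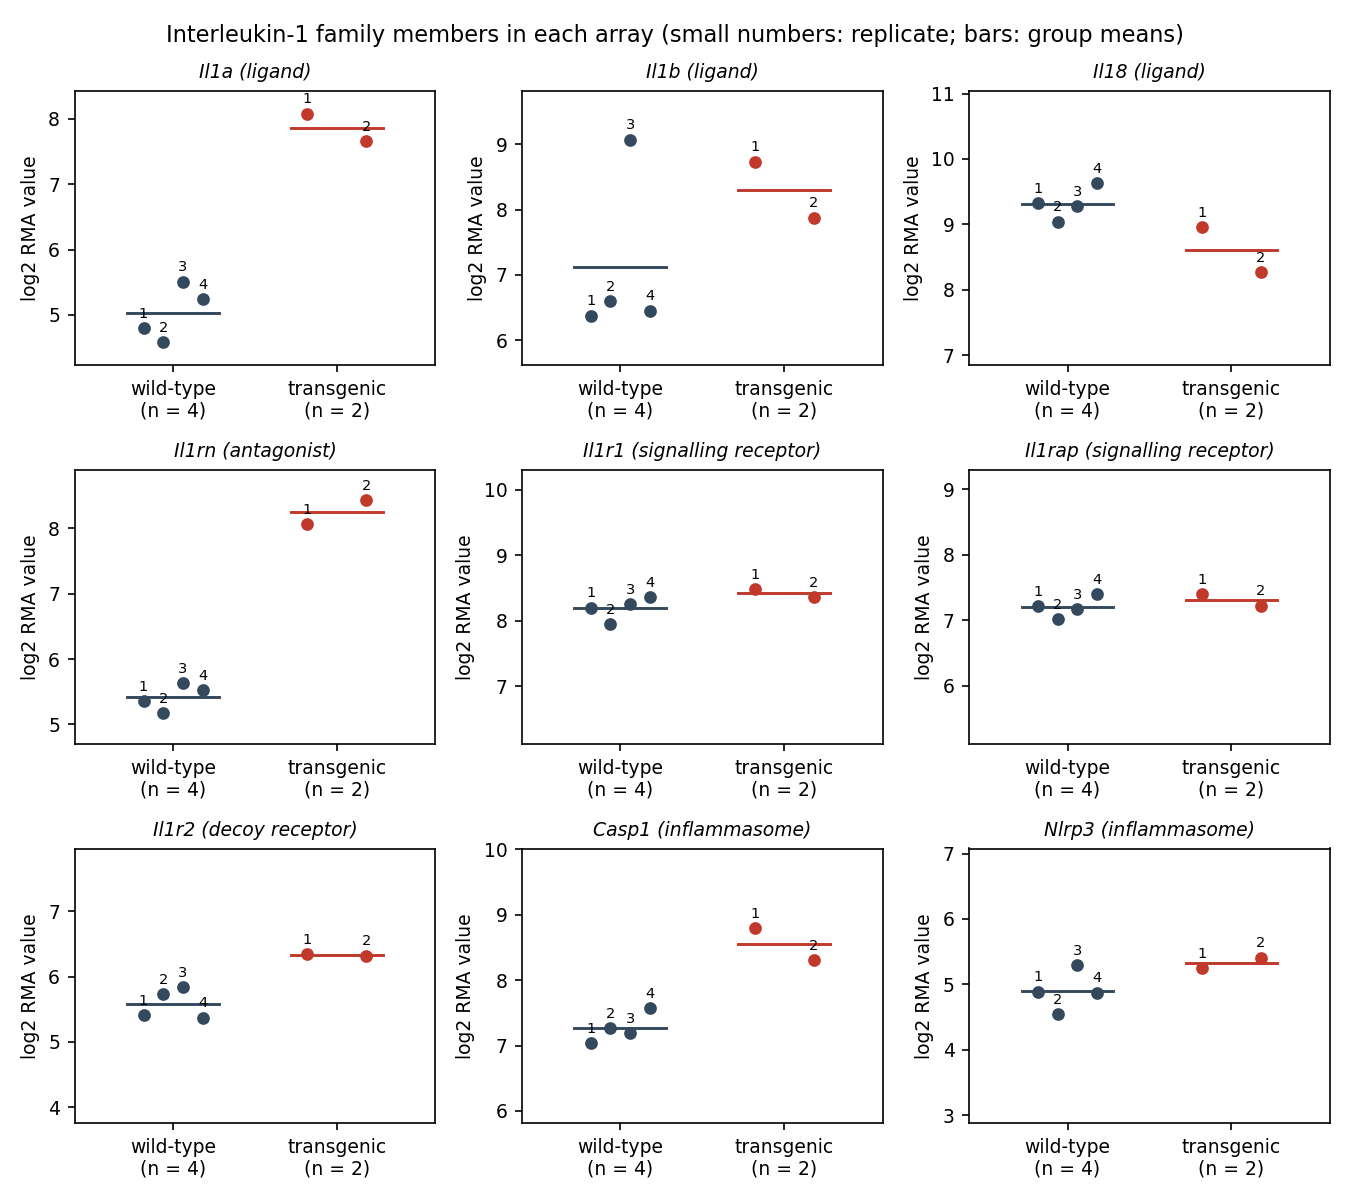
Log2 RMA value of each of the 9 genes in each of the 6 arrays (points, numbered by replicate) with the group means (bars); every panel spans the same height on the log2 scale. The transgenic values of Il1a and Il1rn stand well clear of all wild-type values, and Il1b in wild-type replicate 3 (9.07) is above both transgenic values.

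Il1a, at chromosome 2 from 129299609 to 129310186 (GRCm38.p6), encodes IL-1 alpha, a ligand that cells under stress or dying can release without the inflammasome. Its log2 values were 8.08 and 7.65 in transgenic lungs and 4.80, 4.59, 5.51 and 5.25 in wild-type lungs. Both transgenic lungs were more than 2 log2 units above the highest wild-type lung. The difference was 2.83 ± 0.26 (SE, n = 2 and 4, adjusted p = 0.00021, limma), a 7.12-fold rise with a 95% interval of 4.75 to 10.7. Its mean wild-type value sat at the 46.3 percentile of the array, and no detection call was used here to separate signal from background.

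Il1b, its neighbour on chromosome 2 from 129364569 to 129371164, encodes IL-1 beta, the ligand that macrophages and monocytes make when activated. The transgenic arrays read 8.73 and 7.87, and the wild-type arrays 6.38, 6.60, 9.07 and 6.45. Transgenic values were above those of wild-type replicates 1, 2 and 4 and below that of wild-type replicate 3, so the groups overlap. The difference of 1.18 ± 0.71 did not pass (adjusted p = 0.29, limma), and its 95% interval ran from -0.44 to 2.80. With wild-type replicate 3 left out, Il1b passed at 1.83 (adjusted p = 0.0037), and leaving out any other single array gave adjusted p-values of 0.35 to 0.71.

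Wild-type replicate 3 was also high for other genes. In this array 7 genes, Il1b among them, exceeded the highest of the other wild-type arrays by at least 2.47 on the log2 scale, the gap of Il1b. The other 6, named after their values were seen, were Fosb, Fos, Nr4a1, Atf3, Egr1 and H3f3b, of which the first 5 are immediate early genes that cells switch on within minutes of a stimulus. Fos, for example, read 12.8 there and 9.82, 9.39 and 9.77 in wild-type replicates 1, 2 and 4, and 10.6 and 9.77 in the transgenic arrays. Egr1 read 12.6 there and between 8.88 and 9.99 in wild-type replicates 1, 2 and 4. Their part in the high Il1b value was not tested.

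**Figure D2:**
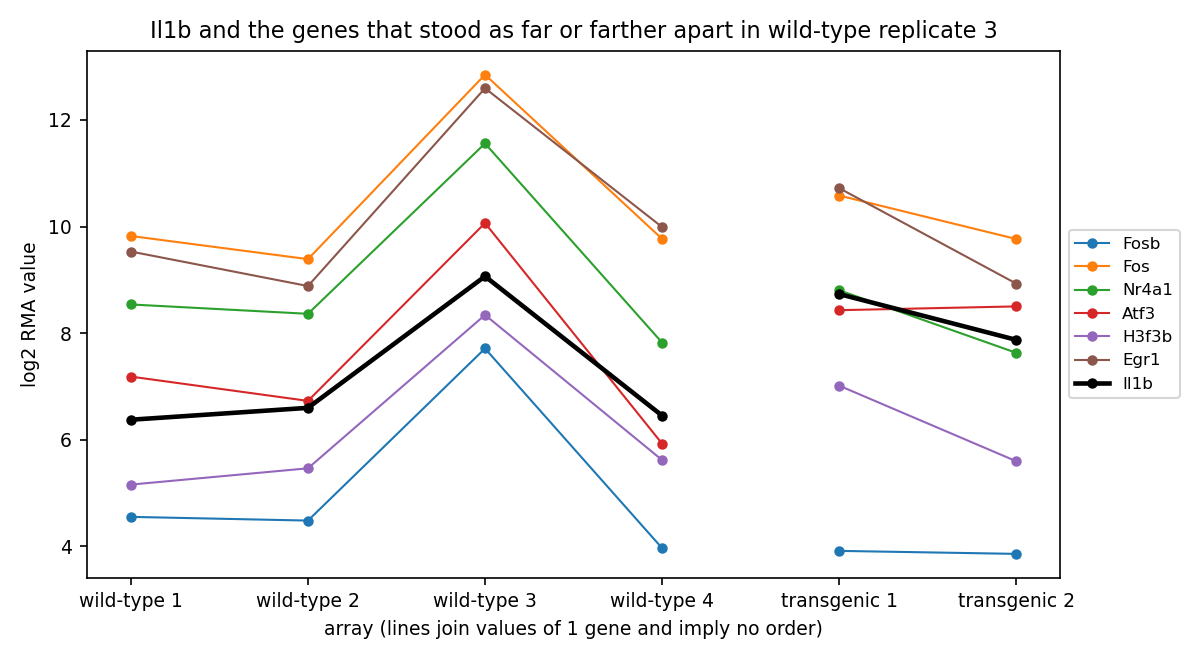
Log2 RMA values of Il1b (thick black line) and of the 6 genes that exceeded the other wild-type arrays by at least as much in wild-type replicate 3, in the 6 arrays. All 7 peak in wild-type replicate 3; the transgenic values of Il1b (8.73 and 7.87) lie above the other 3 wild-type values, as do those of Atf3 (8.43 and 8.50 against 5.93 to 7.18), whereas those of Fosb, Fos, Nr4a1, H3f3b and Egr1 do not.

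Il18 lies on chromosome 9 from 50554700 to 50581841 and encodes a ligand that epithelium stores as a precursor. It was the only 1 of the 9 with both transgenic values below the wild-type range. The transgenic arrays read 8.96 and 8.27 against 9.32, 9.04, 9.27 and 9.63 in wild-type lungs. The difference of -0.70 ± 0.22 missed the threshold (adjusted p = 0.056, limma), with a 95% interval of -1.20 to -0.21. The array lowest for Il18, transgenic replicate 2, was also lowest for the heart and fat markers, and the array highest for Il18, wild-type replicate 4, was highest for both; their part in the difference was not tested. Without transgenic replicate 1 it was -1.05 (adjusted p = 0.037) and without transgenic replicate 2 it was -0.36 (0.37), while it passed at -0.80 (0.034) with wild-type replicate 2 left out.

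Il1rn, on chromosome 2 from 24336860 to 24351491, encodes the receptor antagonist IL-1Ra and had the smallest p-value of the 9, ranking 80 of 18193 genes. Its brightest probe set read 8.06 and 8.43 in transgenic and 5.35, 5.17, 5.63 and 5.52 in wild-type lungs, with no overlap. The difference was 2.83 ± 0.16 (adjusted p = 1.8e-05, limma), a 7.09-fold rise with a 95% interval of 5.47 to 9.18. Both other probe sets of Il1rn also rose, by 1.69 ± 0.11 (6.58 and 6.60 against 4.80 to 4.99) and by 1.96 ± 0.18 (6.30 and 6.35 against 3.96 to 4.68), with adjusted p-values of 5.2e-05 and 0.00038 over all probe sets. All 3 moved in 1 direction, but the brightest moved by more, and the wild-type means of the others (4.90 and 4.36) lay below the array medians.

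The 250 bases before RefSeq start sites of Il1a, its neighbour Il1b and Il1rn are shown (GRCm38.p6, 5′ to 3′ on the gene's strand). RefSeq gives Il1rn 3 start sites, and the windows of the most upstream one and of the next are printed; in human the upstream start is known for an intracellular form and the downstream one for the secreted form. Capitals mark exact matches to 5 motifs. Searched on both strands were the NF-kB motif (GGG, any 5 bases, CC), the STAT6 motif (TTC, any 4 bases, GAA), the AP-1 motif TGANTCA and the PU.1 motif GAGGAA. The TATA box TATAAA was searched on the gene's strand. No matches overlap in the windows shown. The RefSeq starts used for Il1a and Il1b lie inside the gene spans given above. Most of the Il1a window, with all its marked matches, therefore falls within the stated span of Il1a. The bases of the Il1b window nearest its start fall within the span of Il1b.
Il1a, chr2:129309973-129310222, minus strand: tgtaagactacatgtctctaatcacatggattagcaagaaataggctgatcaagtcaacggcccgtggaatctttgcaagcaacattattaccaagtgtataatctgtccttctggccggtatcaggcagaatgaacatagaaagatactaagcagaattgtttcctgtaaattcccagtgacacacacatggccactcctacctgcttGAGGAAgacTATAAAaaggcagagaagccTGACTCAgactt
Il1b, chr2:129371140-129371389, minus strand: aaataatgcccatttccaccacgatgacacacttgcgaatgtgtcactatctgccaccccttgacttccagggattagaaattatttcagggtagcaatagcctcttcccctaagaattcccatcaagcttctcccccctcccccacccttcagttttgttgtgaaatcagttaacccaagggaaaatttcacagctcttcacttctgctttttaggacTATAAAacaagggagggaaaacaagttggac
Il1rn upstream start, chr2:24336610-24336859, plus strand: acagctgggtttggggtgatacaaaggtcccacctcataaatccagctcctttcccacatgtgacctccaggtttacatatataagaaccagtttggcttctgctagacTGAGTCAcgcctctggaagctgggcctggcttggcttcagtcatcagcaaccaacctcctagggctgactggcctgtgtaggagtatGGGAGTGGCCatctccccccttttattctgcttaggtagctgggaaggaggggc
Il1rn next start, chr2:24345041-24345290, plus strand: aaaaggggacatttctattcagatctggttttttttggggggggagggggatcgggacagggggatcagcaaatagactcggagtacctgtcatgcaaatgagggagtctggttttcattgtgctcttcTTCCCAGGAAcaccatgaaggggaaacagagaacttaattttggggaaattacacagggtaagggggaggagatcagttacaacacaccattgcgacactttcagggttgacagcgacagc

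The ligand genes Il1a and Il1b share a TATA box, which begins 32 and 31 bases before their starts, and 7.59% of the 32851 RefSeq windows of this length hold that motif. Among the 13 start sites of the 9 genes it occurred only at these 2. The AP-1 motif stood in the windows of Il1a and of the upstream Il1rn start and in 6.75% of all windows. The STAT6 motif stood in 4 of the 13 member windows and in 5.85% of all windows. It occurred 121 to 112 bases before the next Il1rn start (TTCCCAGGAA), and also before starts of Il18 and Nlrp3. The Il1rn window not printed overlaps that of the next start and holds the same match. The PU.1 motif occurred in 3 of the 13 member windows and 23.3% of all windows. The NF-kB motif occurred in 6 of the 13 and in 45.8% of all windows, too common a match to set a gene apart. A match describes letters and shows no bound factor.

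Il1r1 and Il1rap encode the chains of the signalling receptor, and neither passed the test. Il1r1, on chromosome 1 from 40222480 to 40316201, read 8.48 and 8.36 in transgenic and 8.20, 7.94, 8.25 and 8.36 in wild-type lungs. The ranges overlap, and the difference of 0.23 ± 0.14 did not pass (adjusted p = 0.29, limma; 95% interval -0.08 to 0.54). Il1rap, on chromosome 16 from 26581509 to 26730128, read 7.40 and 7.22 against 7.21, 7.01, 7.16 and 7.40, a difference of 0.11 ± 0.13 (adjusted p = 0.61; 95% interval -0.19 to 0.42). These intervals exclude a 2-fold change of either gene as its brightest probe set measures it, but not a smaller change. The other probe set of Il1r1 lay at the bottom of the array (2.63 to 2.87), and the other 4 of Il1rap, at 3.06 to 4.89, lay below the array medians and did not pass either.

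Il1r2 is the neighbour of Il1r1 on chromosome 1, from 40084692 to 40125230, and encodes the decoy receptor that neutrophils, monocytes and macrophages carry. Its values were 6.34 and 6.32 in transgenic and 5.41, 5.73, 5.83 and 5.37 in wild-type lungs. The transgenic pair agreed within 0.1 log2 and lay above all wild-type arrays. The rise was 0.75 ± 0.15 (adjusted p = 0.012, limma; 1.68-fold, 95% interval 1.31 to 2.14). It no longer passed once transgenic replicate 1 (difference 0.74, adjusted p = 0.092) or 2 (0.76, 0.074) was dropped, and there the spread of the single transgenic array is taken from the wild-type arrays.

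Changes within pairs of genes were unequal. Il1r2 changed by 0.52 more than Il1r1 on the log2 scale, with every transgenic within-array difference above all wild-type ones. Il1rn changed by 1.65 more than Il1b, and by 1.07 more without wild-type replicate 3. These compare changes, not levels, and were not tested.

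Casp1, on chromosome 9 from 5298517 to 5307281, encodes the protease that matures IL-1 beta and IL-18. It read 8.79 and 8.31 in transgenic and 7.04, 7.26, 7.19 and 7.57 in wild-type lungs, without overlap. The rise was 1.29 ± 0.18 (adjusted p = 0.0023, limma), or 2.44-fold with a 95% interval of 1.82 to 3.26. Nlrp3, on chromosome 11 from 59541569 to 59566955, encodes the sensor that assembles the best known inflammasome. It read 5.25 and 5.41 against 4.89, 4.55, 5.29 and 4.87, near the array medians. Wild-type replicate 3 lay between the transgenic values, and the difference of 0.43 ± 0.19 did not pass (adjusted p = 0.16), whereas without that array it was 0.56 (adjusted p = 0.049).

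**Figure D3:**
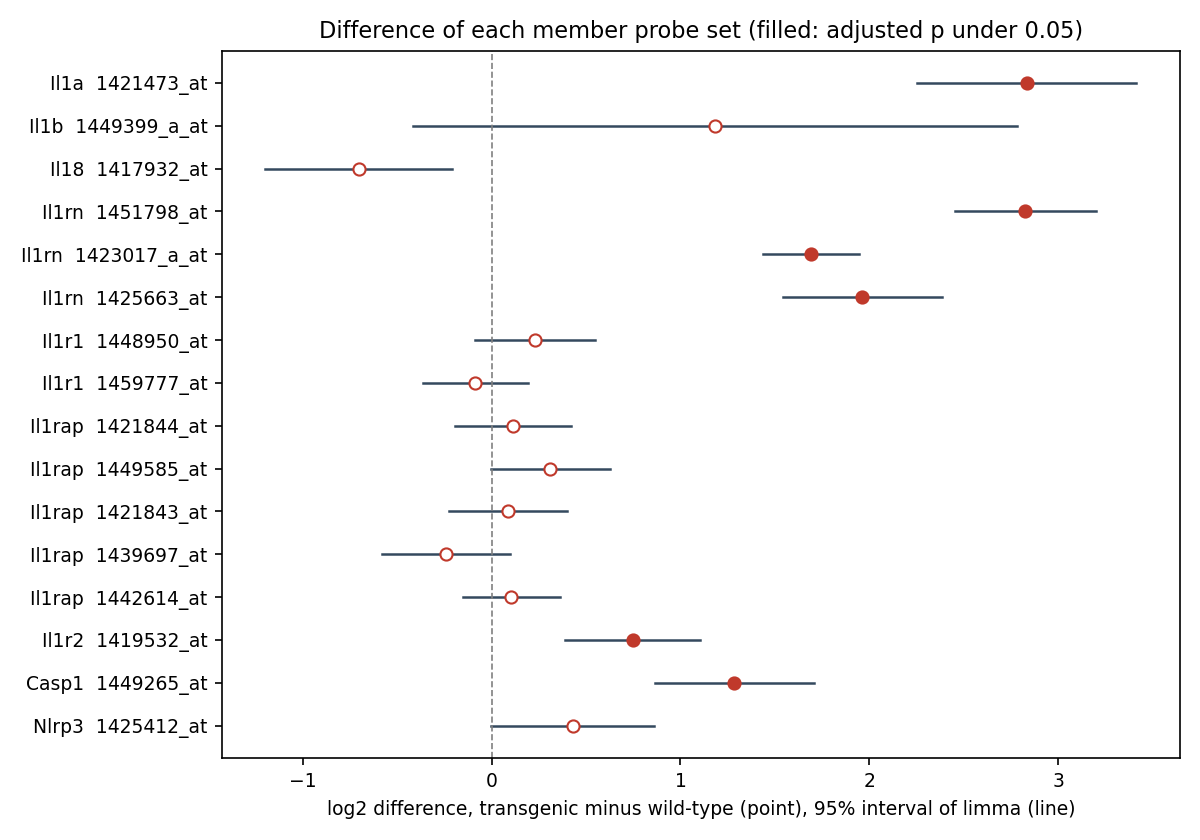
Log2 difference, transgenic minus wild-type, of each of the 16 probe sets (points) with the 95% interval of limma (lines); filled points have an adjusted p under 0.05 over all 45037 probe sets. The 3 probe sets of Il1rn and those of Il1a, Il1r2 and Casp1 are filled and to the right of 0, and the interval of Il1b is the widest.

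With every probe set tested on its own, 6 of the 16 were higher and 0 lower in limma (7 at an unadjusted p under 0.05), where 5.39% of all probe sets were higher and 5.99% lower. Both transgenic values lay above the wild-type range for 7 of the 16 and below it for 1, against 17.5% and 17.2% of all probe sets (34.7% on either side). The authors' deposited table gives the same log2 differences, with q-values whose test is not stated. In it 2 of the 16 had a q-value under 0.05, as did 1.88% of all probe sets. Both belonged to Il1rn, with q-values of 0.0017 and 0.011 in the authors' deposited table. That table gives 0.22 for the brightest Il1rn probe set, 0.23 for Il1a, 0.28 for Casp1, 0.062 for Il1r2 and 0.41 for Il1b. With 2 arrays against 4 the smallest p of an exact permutation test on 1 gene, doubled to be two-sided, is 0.133. The calls above therefore depend on limma's pooling of variance over genes.

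**Figure D4:**
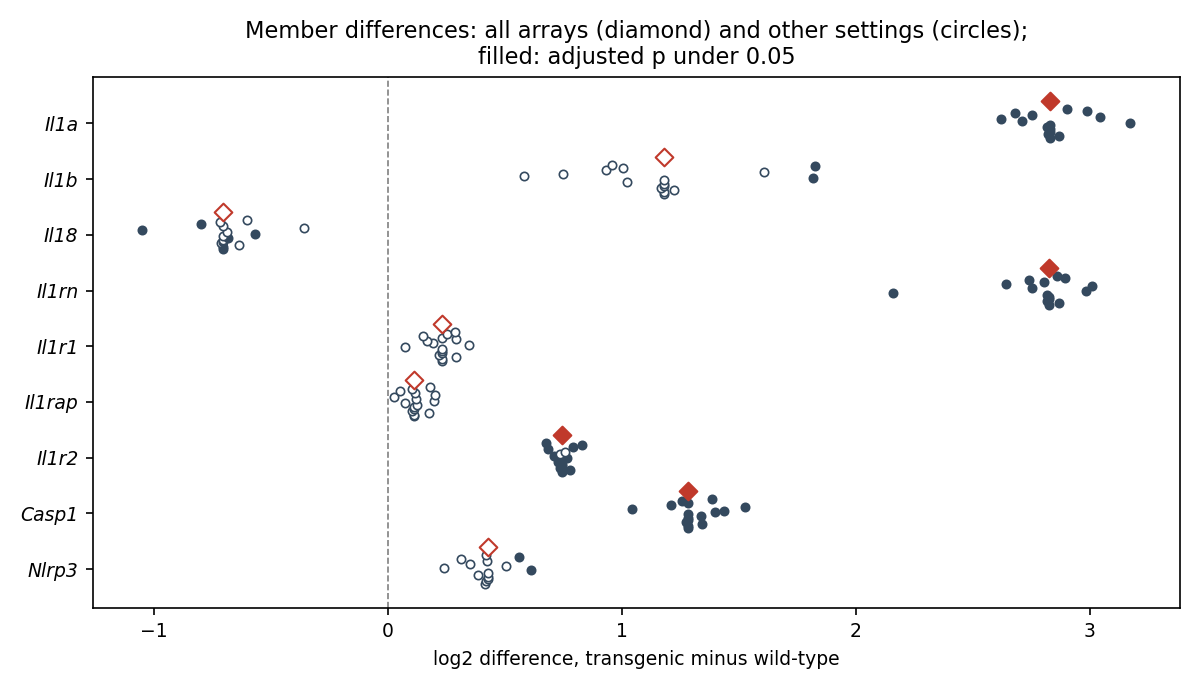
Log2 difference of each of the 9 genes with all arrays (red diamonds, drawn above the row) and under up to 16 other settings of the processing or choice of arrays (circles); filled symbols have an adjusted p under 0.05. Il1a, Il1rn and Casp1 are filled wherever they were tested, Il1b spreads from 0.58 to 1.83, and all circles of a gene lie on the same side of 0.

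Genes whose pattern over the 6 arrays was most like that of Il1rn (highest Pearson's r, described without a test since all follow genotype) were Myo1f (r = 0.9997), Sgpp2 (0.9994) and Spi1 (0.9993). Spi1 encodes PU.1, the transcription factor of myeloid cells, and Myo1f a myosin of leukocytes. Spi1 read 8.58 and 8.78 in transgenic and 6.88 to 7.14 in wild-type lungs, a rise of 1.63 ± 0.12 (adjusted p = 7.6e-05, limma). The genes most like Il1b were 9130016M20Rik (r = 0.99), Fgf2os (0.98) and Nfkbid (0.98), of which the first pair read 2.68 to 3.72 on all arrays. Nfkbid, which encodes a nuclear regulator of NF-kB, read 5.90 and 5.71 in transgenic lungs, 5.96 in wild-type replicate 3 and between 4.71 and 4.86 in the rest.

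Cell markers moved as well. Of 11 macrophage and monocyte markers 9 were higher and 0 lower (median log2 difference 2.04, against -0.00 for all genes), with list means of 9.67 and 9.65 in transgenic and 7.41 to 7.5 in wild-type arrays. The count of 9 became 10 with wild-type replicate 4 left out, held without any other wild-type array, and was smaller without either transgenic array. Of 11 neutrophil markers 1, Elane, was higher and 0 lower (median 0.26), a share near the 8.43% of all genes, and 0 were higher once either transgenic array was left out, while 1 was lower with wild-type replicate 2 left out. The list means of the neutrophil markers, 6.07 and 5.99 in transgenic arrays, lay inside the wild-type range of 5.67 to 6.22. The neutrophil genes Ngp, Camp, Cxcr2, Mpo and Elane lay below the array medians on all arrays, and Ly6g was not analysed here. Cd68 rose by 3.59 and Itgax by 3.46, more than Il1a or Il1rn. Csf1r (0.31, adjusted p = 0.099, limma) and the monocyte chemokine receptor gene Ccr2 (0.89, adjusted p = 0.061) did not pass. Most macrophage markers, but not all, thus moved with Il1rn, Il1a and Casp1, and their part in these rises was not tested. Of 4 B cell markers 0 were called (median 0.10; 1 was higher with wild-type replicate 4 left out), and of 6 T and NK cell markers 0 (0.09). Epithelial markers had 0 of 11 higher and 3 lower, endothelial 0 of 7 and 3, fibroblast and smooth muscle 1 of 7 and 2, heart muscle 0 of 6 and 4, and fat 0 of 6 and 4, where 10.5% of all genes were lower. The heart and fat counts of lower markers were each 5 with wild-type replicate 2 left out. For fat the count was 3 with wild-type replicate 3 or 4 left out, and 1 fat marker was higher without wild-type replicate 4. The heart count of 4 lower markers was 1 with transgenic replicate 2 or wild-type replicate 1 left out and 2 with wild-type replicate 3 left out. The fat count of 4 was 2 with transgenic replicate 2 or wild-type replicate 1 left out. With 1 array left out the epithelial count was 2 each time, the endothelial 2 to 4, and the fibroblast and smooth muscle counts 0 to 1 higher and 1 to 2 lower.

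Counts in the further gene lists stand beside 8.43% of all genes higher and 10.5% lower. The members and gene lists were chosen with earlier results of these data known. Such counts describe the lists and are no independent test of them. Among the other IL-1 family ligands and antagonists 2 of 7 were higher and 0 lower (median 0.32), too few genes to set against that background. Il33, an alarmin that epithelial and stromal nuclei hold ready, read 12.6 and 12.5 in transgenic and 9.69 to 10.3 in wild-type lungs, a rise of 2.55 ± 0.16 (adjusted p = 2.8e-05, limma). Il18bp, which encodes a secreted protein that captures IL-18, rose by 1.02 ± 0.13 (adjusted p = 0.0016). The IL-36 genes, which the annotation lists as Il1f5, Il1f6, Il1f8 and Il1f9, and Il1f10 read 3.82 to 5.99 and did not pass with all arrays used. Il1f6 differed by 0.41 with all arrays (adjusted p = 0.082, limma). With transgenic replicate 2 left out, which leaves 1 transgenic array, Il1f6 differed by 0.64. Of 6 other receptor genes 1 was higher and 0 lower (median 0.17). It was Il1rl2, which encodes the IL-36 receptor, at 8.15 and 8.29 against 6.51 to 6.88 (1.5 ± 0.13, adjusted p = 0.00017; 0.996 as the mean of its probe sets). The IL-18 receptor genes did not pass, Il18r1 at 0.20 ± 0.11 and Il18rap at 0.33 ± 0.12 (adjusted p = 0.27 and 0.094). Il1rl1 was not analysed here.

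**Figure D5:**
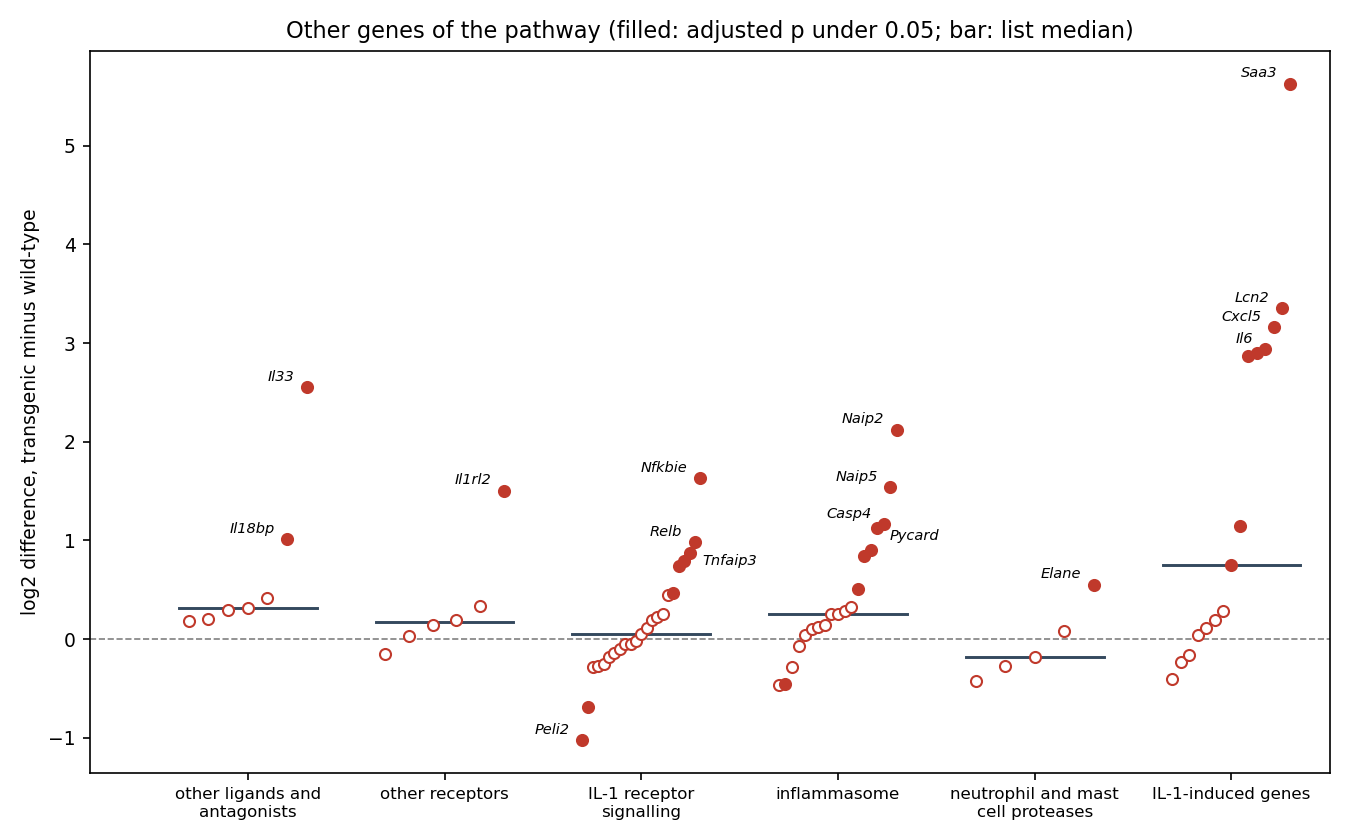
Log2 difference, transgenic minus wild-type, of the other genes of the pathway in 6 lists (points; filled points have an adjusted p under 0.05 over all genes) with the list medians (bars). Most signalling genes lie near 0 (list median 0.05). Of the 15 genes that IL-1 is known to induce 8 are filled and above 0, up to 5.63 for Saa3. Of all genes 8.43% were higher. The lists were chosen with earlier results of these data known.

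Of 23 genes of IL-1 receptor signalling 6 were higher, 2 lower and 15 not passed (median 0.05), where 8.43% of all genes were higher and 10.5% lower. The higher ones were Myd88, the adaptor of the receptor (0.46 ± 0.14, adjusted p = 0.047), and genes of the NF-kB step. The Myd88 call was lost when any array but wild-type replicate 2 was left out (adjusted p = 0.074 to 0.26). Nfkbie, an inhibitor of NF-kB, rose by 1.63 ± 0.17 and Relb, an NF-kB subunit, by 0.98 ± 0.11. Tnfaip3, which encodes the feedback inhibitor A20, rose by 0.88 ± 0.15 (adjusted p = 0.0056, limma), and Nfkb2 and Rel, further subunits, by 0.79 and 0.74. Peli1 and Peli2, which encode ubiquitin ligases that act on IRAK kinases, fell by 0.69 (SE 0.10) and 1.02 (SE 0.13). As means of all probe sets of a gene, which also passed, the differences were smaller for Tnfaip3 (0.53, adjusted p = 0.030), Nfkb2 (0.53), Peli1 (-0.32) and Peli2 (-0.64). Irak1, Traf6 and Ikbkb differed by 0.05, -0.05 and -0.02. The count of 6 dropped to 3 with transgenic replicate 2 left out, as Myd88 (adjusted p = 0.26), Rel (0.056) and Tnfaip3 (0.058) no longer passed. Irak4, Chuk and Nfkb1 were not analysed here.

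Inflammasome genes beyond Casp1 and Nlrp3 had 7 of 19 higher, 1 lower and 11 not passed (median 0.26), beside 8.43% and 10.5% of all genes. Pycard, which encodes the adaptor ASC that links sensors to caspase-1, read 9.92 and 9.63 against 8.57 to 8.78 (1.13 ± 0.13, adjusted p = 0.00067, limma). That is its brightest probe set, and the mean of its probe sets differed by 0.41 (adjusted p = 0.044). Naip2 and Naip5, sensors of bacterial proteins, rose by 2.12 ± 0.18 and 1.54 ± 0.22; the Naip genes are close copies of each other, which an array may not fully separate. Casp4, which encodes mouse caspase-11, rose by 1.16 ± 0.24 (adjusted p = 0.012), and with transgenic replicate 1 left out it did not pass (0.85, adjusted p = 0.12). Naip6, Pstpip1 and Aim2 also rose, by 0.90, 0.85 and 0.51, the last from a mean wild-type value near the floor. Gsdmd, whose product forms the pore for release, differed by 0.14 ± 0.13 (adjusted p = 0.50). The 1 lower gene was Nek7, which encodes a partner of NLRP3 (-0.45 ± 0.12, adjusted p = 0.036), and its call ended when any array but wild-type replicate 3 was left out (adjusted p = 0.054 to 0.26). The count of 7 dropped to 4 with transgenic replicate 1 left out, as Casp4, Pstpip1 and Aim2 did not pass, and Aim2 also failed with transgenic replicate 2 or wild-type replicate 1 left out (adjusted p = 0.12 and 0.056). Txnip was not called with all arrays (-0.47, adjusted p = 0.094, limma). With wild-type replicate 4 left out Txnip was lower at -0.55 (adjusted p = 0.04997, limma). Nlrp1a, Nlrp1b, Nlrc4, Naip1 and Card9 were not analysed here.

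Proteases of neutrophils and mast cells can also cut IL-1 precursors, and of 5 such genes 1 was higher and 0 lower (median -0.18). It was the neutrophil elastase gene Elane, at 4.22 and 4.28 against 3.62 to 3.85 (0.55 ± 0.11, adjusted p = 0.011, limma). All Elane values lay below the array medians, and Elane did not pass once transgenic replicate 1 (adjusted p = 0.068) or 2 (0.081) was left out.

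Of 15 genes that IL-1 is known to induce, and other stimuli too, 8 were higher, 0 lower and 7 not passed (median 0.75), beside 8.43% and 10.5% of all genes. The acute-phase gene Saa3 rose by 5.63 ± 0.41, the siderophore-binding protein gene Lcn2 by 3.35 ± 0.29, the neutrophil chemokine gene Cxcl5 by 3.16 ± 0.16 and the cytokine gene Il6 by 2.94 ± 0.29, each with an adjusted p of 0.00034 or less in limma. Wild-type values of Cxcl5 (2.91 to 3.23) and Il6 (3.02 to 3.39) lay below the first quartile of every array, and differences from so low a level can be understated. Cxcl1, Cxcl2, Ptges and Csf2 also rose, by 2.89, 2.87, 1.14 and 0.75, Cxcl2 likewise from low wild-type values (2.69 to 3.97). The cyclooxygenase gene Ptgs2, at 7.76 and 7.79 against 7.54 to 8.43, differed by -0.24 ± 0.24 (adjusted p = 0.56), and the adhesion genes Icam1, Vcam1 and Sele did not pass either. With transgenic replicate 1 left out the count of 8 was 7, as Csf2 did not pass, and Mmp3, which was not called with all arrays (-0.40, adjusted p = 0.50), was lower at -1.18 (adjusted p = 0.031).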

How the data were processed

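Lung RNA extracted with TRIzol was measured on 6 Affymetrix arrays. The authors deposited log2 values, made with RMA per the submitters' processing notes, which give no version, and a table with log2 fold changes and q-values of the probe sets, named so per the file headers; no source used here gives its test. Its 6 columns of single arrays, whose names correspond to no label, were left aside.

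Of 45037 probe sets 34945 carried 1 gene symbol, 932 several and 9160 none. Symbols were updated through Entrez IDs in RefSeq (34741 matched). Each of 18193 genes was read from its probe set with the highest mean. The contrast between genotypes was fitted by lmFit and eBayes of limma 3.58.1 (R 4.3.3), which left 4 residual degrees of freedom, and p-values were adjusted by Benjamini and Hochberg's method over all genes or all probe sets (threshold 0.05). SE and intervals are limma's. The pipeline was tested on simulated data. No filter on low values was applied, so all 9 genes were tested. The few arrays limit precision.

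The members and gene lists were chosen with earlier results of these data known. Named are the members with all their probe sets, Il13, up to 4 genes of each pathway list with the largest called changes, and the 3 genes most like Il1b and Il1rn. Genes outside this rule (Fos, Egr1 and the others high in wild-type replicate 3, and further list and marker genes) were chosen after their values were seen. Sequences are from RefSeq (GRCm38.p6), which matched all 9 genes. Alternatives were filters, normalizations, moderation, array weights, probe set averages, a replicate block and leaving out arrays. Figures were made with matplotlib 3.10.9 (Python 3.11.15).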

Additional observations from a re-analysis of the deposited data

Results flagged for a closer look

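The wild-type values of Il1b met a test for a single value far from the others. Wild-type replicate 3 (9.07) lay 2.47 above the next wild-type array on the log2 scale, a gap of 0.917 of the whole wild-type range, above Dixon's critical value at 95% for 4 samples. Il1b was the only 1 of the 16 probe sets to do so, and chance flags about 5% of groups. In the same array 19 of 18193 genes exceeded every other wild-type array by at least 1 on the log2 scale, against 0, 40 and 55 genes in wild-type replicates 1, 2 and 4. Among the 19, Junb read 9.79 there and 6.77 to 7.92 elsewhere in wild-type lungs, and Nfkbid 5.96 and 4.71 to 4.86.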

How the results depend on the processing

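Of the 16 other settings run for genes, those in which a member was tested kept the direction of all 9. Calls of Il1a, Il1rn and Casp1 held in each of them, with the 2 exceptions that Il1a and Il1rn were not tested where genes needed a mean at or above the median of all genes. Under that filter, which also dropped Il1r2, 1 member was higher. The count of lower members was 0 with all arrays and 1, namely Il18, under both filters on low values, an intensity trend and array weights (adjusted p = 0.041 to 0.0486). Leaving out 1 array gave 3 to 6 higher and 0 to 1 lower members, 5 to 7 higher member probe sets, 731 to 1578 higher and 580 to 2016 lower genes, and 1063 to 2359 higher and 594 to 2731 lower probe sets. Fewest genes passed when transgenic replicate 1 was the one left out, and 1245 were lower when wild-type replicate 1 was. Without wild-type replicates 2 and 4 together 4 members were higher, and Il1b differed by 0.58 (adjusted p = 0.67). Changes of Il1rn beyond Il1b ran from 1.03 to 2.26 and of Il1r2 beyond Il1r1 from 0.39 to 0.64 when 1 array was left out. The replicate numbers do not pair the samples as far as the labels say, and deviations from group means correlated at -0.08 and 0.27 across genes for numbers 1 and 2. With the replicate number as a block, which sets transgenic lungs against only replicates 1 and 2 of the wild type and leaves 1 residual degree of freedom, 6 members were higher (Il1b at 1.82 and Nlrp3 at 0.61 beside the 4) and 1 lower (Il18 at -0.57), and of the probe sets 8 and 1.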

Other observations

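Genes whose products hold back IL-1 or IL-18 signalling were put together after their values were seen, so they are given as values, with no count or test as a group. The antagonist gene Il1rn (2.83), the IL-18 binding protein gene Il18bp (1.02), the gene of A20, Tnfaip3 (0.88), and the decoy receptor gene Il1r2 (0.75) were higher on the log2 scale. With transgenic replicate 2 left out Tnfaip3 (adjusted p = 0.058, limma) and Il1r2 (0.074) no longer passed, and with transgenic replicate 1 left out Il1r2 did not (0.092). The kinase-dead IRAK gene Irak3 (0.44 ± 0.16, adjusted p = 0.091, limma), the IL-36 antagonist gene Il1f5 (0.20), the receptor gene Sigirr (-0.16 ± 0.12) and Tollip (-0.10 ± 0.12) did not pass. Irak3 read 5.69 and 6.15 in transgenic and 5.31 to 5.68 in wild-type lungs.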
